A study of Mus musculus with 13 samples.

Results

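The retinoid genes of the mouse liver were examined in 4 liver cell populations and in hepatic stellate cells (HSC) kept in culture. A set of 37 genes was chosen by symbol from the steps of vitamin A transport, storage, conversion and signalling, out of 19537 genes represented by a probe set with a single symbol. Each of the 37 had 1 such probe set. All arrays came from naive C57BL/6 mice aged 6 to 10 weeks, with no allele or agent added. Freshly sorted were the hepatocytes, the Kupffer cells (the resident macrophages) and the liver sinusoidal endothelial cells (LSEC), with 3 arrays each, labelled as biological replicates. HSC were measured after 1 day (2 arrays), 7 days (1 array) and 14 days (1 array) of culture in serum-containing medium, so no uncultured HSC served as a reference. Culture and cell type therefore cannot be told apart where HSC are set against the sorted cells. The 1-day HSC arrays are also labelled as biological replicates, and the labels do not say whether these came from separate mice.

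Vitamin A reaches the liver as retinyl esters, and most of it is kept as esters in the lipid droplets of stellate cells. Hepatocytes release retinol into blood on the carrier RBP4, bound to transthyretin. Inside cells, retinol is oxidised to retinal by alcohol and retinol dehydrogenases, retinal to retinoic acid by the ALDH1A enzymes, and retinoic acid is cleared by CYP26 hydroxylases. Retinoic acid acts through receptors of the RAR family, which bind DNA as partners of RXR receptors.

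Values are probe-set intensities on a linear scale, and means are given ± SD. Levels were compared between arrays for the same gene and not between genes. Differences are on the scale log2(intensity + 83), where 83 is the 20th percentile of the whole table, so differences of dim genes are understated. A gene was called higher or lower in a population when limma gave an adjusted p below 0.05 and a difference of at least 1 against each of the other 3 populations. The difference printed is that from the nearest population, with the largest of the 3 adjusted p-values. In such bulk samples, fewer cells of a type and less RNA per cell cannot be told apart.

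The arrays carried the markers of the cells on their labels. Of 10 hepatocyte, 10 Kupffer cell and 10 LSEC markers, 10 each exceeded the table's median of 224.5 on average in their own population. On the 1-day HSC arrays 11 of 12 stellate cell markers did, Gfap being the exception. Of 10 myofibroblast markers 9 were above that median on the 1-day HSC arrays as well. Their summed intensity was 39477 to 45127 there, against 1772 to 2623 in the sorted cells. Markers of other cells were also read on the 1-day HSC arrays. The summed intensity of the hepatocyte markers was 9877 to 16555 there, against 120088 to 127350 in hepatocytes and 1253 to 1312 on the longer HSC cultures. That of the LSEC markers was 11677 to 12566, against 53019 to 73254 in LSEC and 2326 to 2533 on the longer cultures. On the Kupffer cell arrays the LSEC markers summed to 12915 to 15227, with 9 of 10 above the median. Of the Kupffer cell markers 8 of 10 were above it on the 1-day HSC arrays, with a sum of 4621 to 6107 against 83604 to 86271 in Kupffer cells.

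**Figure D1:**
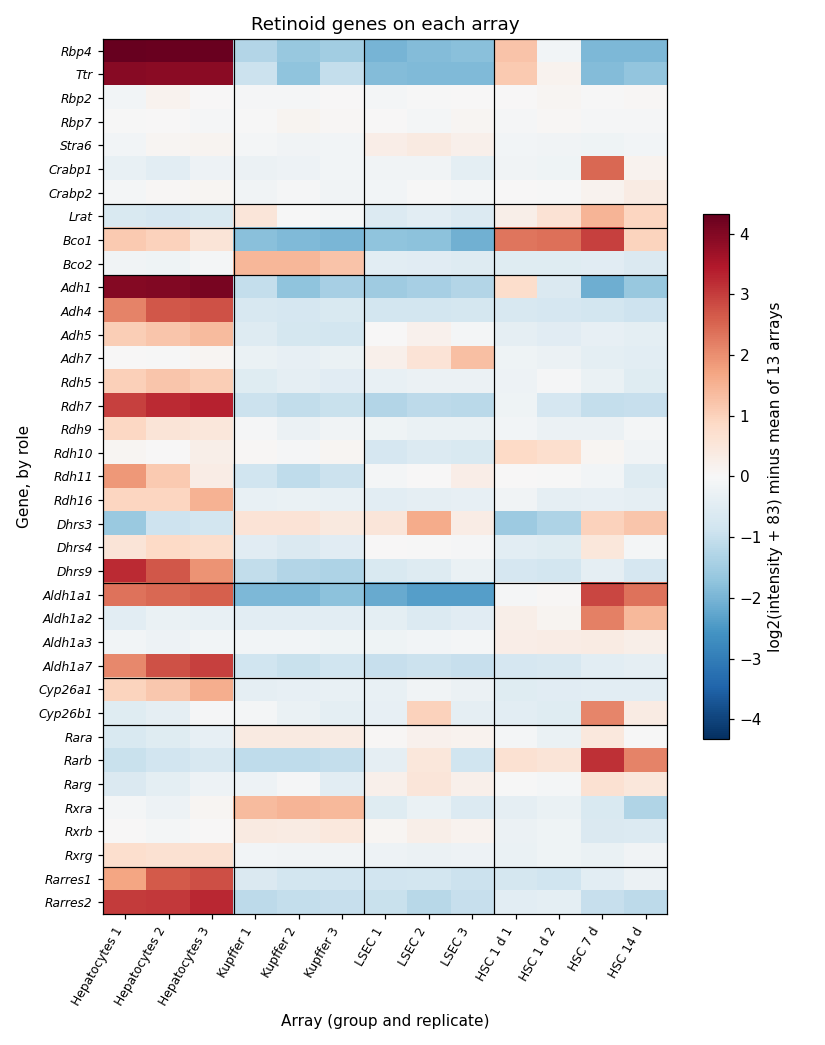
Each row is 1 of the 37 retinoid genes, ordered by role, and each column 1 of the 13 arrays. Colour gives log2(intensity + 83) minus the gene's mean over the arrays. The deepest red fields are those of Rbp4, Ttr and Adh1 in hepatocytes, and Aldh1a1, Aldh1a2, Cyp26b1 and Rarb are red in HSC after 7 days.

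In the population comparison 18 of the 37 retinoid genes were called, where 22.7% of the 12081 genes tested were. Hepatocytes were the highest population for 15 of them, where 6.80% of the genes tested were called. Kupffer cells had 2, where 6.53% were called, 1-day HSC had 1, where 2.59% were called, and LSEC had 0, where 2.35% were called. No retinoid gene was called lower in a population by limma, where 2.72% of genes were called in hepatocytes, 2.28% in Kupffer cells, 0.406% in LSEC and 0.281% in 1-day HSC. At an unadjusted p below 0.05 against each other population, with no minimum difference, limma gave 17 retinoid genes higher in hepatocytes and 1 lower (Rara), where 16.6% and 17.1% of all genes were. At that limit 4 were higher in Kupffer cells (Bco2, Rara, Rxra, Rxrb) and 3 lower (Adh5, Rdh5, Rdh11), where 17.1% and 16.3% were. In LSEC 3 were higher (Stra6, Adh7, Rarg) and 3 lower (Aldh1a1, Rdh10, Ttr), where 12.4% and 3.81% were. In 1-day HSC 4 were higher (Aldh1a3, Rdh10, Bco1, Rarb) and 1 lower (Rxrb), where 12.0% and 6.59% were. Of the 37, 32 passed the filter on dim genes. The median difference of those 32 from the mean of the other populations was 1.21 in hepatocytes, against -0.11 over all genes tested. It was -0.56 in Kupffer cells, -0.47 in LSEC and -0.33 in 1-day HSC, against -0.08, 0.06 and -0.04 over all genes. Adh4, Aldh1a7, Rdh7, Rdh9, Rdh16, Rarres1 and Cyp26a1 passed the filter of this fit only through hepatocyte arrays, where they are high. Bco2 passed it only through Kupffer cell arrays, Adh7 only through LSEC arrays and Aldh1a3 only through 1-day HSC arrays. Rdh5 would not have passed without the hepatocyte arrays. The counts and medians above include these genes and so depend in part on the filter.

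Set against 1 population at a time, hepatocytes again held most of the differences. Against Kupffer cells 17 retinoid genes were higher in hepatocytes and 3 lower, where 12.0% and 13.7% of all genes were. Against LSEC 16 were higher and 1 lower (Dhrs3), where 10.0% and 12.5% were. Against 1-day HSC 16 were higher and 3 lower (Lrat, Bco1 and Rarb), where 10.1% and 12.3% were. Between Kupffer cells and LSEC, 2 genes were higher in Kupffer cells (Bco2 and Rxra) and 2 lower (Adh7 and Rdh11), where 9.54% and 10.3% of all genes were. Kupffer cells exceeded 1-day HSC in 3 genes (Dhrs3, Bco2 and Rxra) and were lower in 6, where 11.7% and 12.9% were. LSEC exceeded 1-day HSC in 1 gene (Dhrs3) and were lower in 6, where 5.24% and 5.60% were. The genes Rbp4, Ttr, Adh1, Aldh1a1 and Bco1 were in both groups of 6, with Rarb in the first and Rdh10 in the second.

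Carriers of retinol in blood were hepatocyte genes on these arrays. Rbp4, the serum retinol carrier, read 14487, 14132 and 13897 in hepatocytes, 218, 150.3 and 175 in Kupffer cells, 98.3, 114 and 125 in LSEC and 1636 and 589 in 1-day HSC. The 3 hepatocyte arrays lay far above every other array, and the 1-day HSC arrays came next. Hepatocytes exceeded 1-day HSC by a log2 difference of 3.73 (SE 0.275, limma adjusted p = 1.5e-07). Ttr, which encodes transthyretin, read 12865, 12586 and 12465 in hepatocytes, 362, 173 and 331 in Kupffer cells, 146, 144 and 141 in LSEC and 1779 and 865 in 1-day HSC. Its order was the same, with a difference of 3.26 from 1-day HSC (SE 0.254, limma adjusted p = 2.6e-07). Stra6, the cell-surface receptor for RBP4, differed little among the populations, at 271.5 ± 29.7 in hepatocytes and 343.2 ± 24 in LSEC. The cellular retinol-binding protein genes Rbp2 and Rbp7 stayed near the low end, at 80.2 to 115 and 93.0 to 116 over the 13 arrays, and neither passed the filter.

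The alcohol dehydrogenases that oxidise retinol are encoded in a cluster in which Adh7 and Adh1 are adjacent coding genes, as are Adh4 and Adh5. They did not share a profile. Adh1 read 11995, 12325 and 13098 in hepatocytes, 297, 149.9 and 206 in Kupffer cells, 180.1, 199.8 and 240.5 in LSEC and 1220.0 and 415 in 1-day HSC. Hepatocytes did not overlap any other group, and 1-day HSC replicate 1 was the highest array outside them. The log2 difference from 1-day HSC was 3.96 (SE 0.307, limma adjusted p = 2.4e-07). Adh4 read 1073, 1608 and 1677 in hepatocytes and 67.2 to 80.5 on the other 8 arrays of the comparison, a difference of 3.24 from Kupffer cells (limma adjusted p = 1.4e-09). Adh5, best known for the glutathione-dependent removal of formaldehyde, was read in every population. It gave 2227, 2485 and 2778 in hepatocytes, 667, 579 and 553 in Kupffer cells, 1037, 1182 and 958 in LSEC and 773 and 714 in 1-day HSC, and the hepatocyte values were above the rest by 1.18 from LSEC (limma adjusted p = 6.6e-07). Adh7, whose enzyme is known from the stomach and other epithelia, was highest in LSEC, at 188, 262 and 486, against 144 to 159.9 in hepatocytes and 98.5 to 107 in Kupffer cells. LSEC exceeded Kupffer cells by 1.01 (limma adjusted p = 6.0e-04), 1-day HSC by 0.93 and hepatocytes by 0.69, so Adh7 was not called in LSEC. The LSEC arrays spread widely, replicate 3 being the highest. Adh7 passed the filter only through LSEC replicates 2 and 3, so its differences depend in part on the filter.

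Of the short-chain dehydrogenases that interconvert retinol and retinal, 5 of 9 were called in hepatocytes, where 6.80% of all genes tested were called. Rdh7 read 2327, 2841 and 3043 in hepatocytes, 82.3, 65.8 and 79.6 in Kupffer cells, 47.3, 58.7 and 57.2 in LSEC and 190.1 and 105 in 1-day HSC, a difference of 3.63 from 1-day HSC (SE 0.149, limma adjusted p = 7.2e-10). Rdh16, from the same gene cluster, read 308, 312 and 503 in hepatocytes and 68.6 to 104 elsewhere, a difference of 1.40. Rdh5, known as the 11-cis-retinol dehydrogenase of the eye, read 633, 706 and 646 in hepatocytes and 160.2 to 249 elsewhere, a difference of 1.24. In each of these genes the hepatocyte arrays stood clear of the other arrays.

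Dhrs9, which encodes a retinol dehydrogenase, read 4231, 2898 and 1705 in hepatocytes, 142, 111 and 100.3 in Kupffer cells, 213, 235 and 297 in LSEC and 196 and 187 in 1-day HSC. Rdh11, which encodes a retinal reductase, read 2823, 1650.3 and 904 in hepatocytes, 349, 282 and 332 in Kupffer cells, 662, 716 and 865 in LSEC and 710.2 and 689.8 in 1-day HSC. Both were highest on hepatocyte replicate 1 and lowest on replicate 3, and hepatocyte replicate 3 of Rdh11 lay just above the highest LSEC array. The difference from LSEC was 3.11 for Dhrs9 (limma adjusted p = 2.8e-07) and 1.05 for Rdh11 (SE 0.279, limma adjusted p = 0.0067). The Rdh11 call was lost without hepatocyte replicate 1, at 0.66, without LSEC replicate 1, at 0.97, and with the median of the table as the added constant, at 0.94. Aldh1a7 and Rarres1 ran the other way and were lowest on hepatocyte replicate 1.

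The other 4 short-chain genes did not pass in any population. Rdh9, the gene next to Rdh16, read 319.6, 238 and 219 in hepatocytes and 92.7 to 127 elsewhere, 0.80 above Kupffer cells. Rdh10, whose enzyme carries out most retinol oxidation in the embryo, read 701, 663 and 782 in hepatocytes, 676, 632 and 698 in Kupffer cells, 360.4, 399 and 378 in LSEC and 1249.7 and 1127 in 1-day HSC. The 1-day HSC arrays were the highest and LSEC the lowest, with 1-day HSC 0.67 above hepatocytes (limma adjusted p = 3.5e-05) and 1.46 above LSEC (limma adjusted p = 9.6e-08). Dhrs4, a peroxisomal retinal reductase gene, was 0.74 higher in hepatocytes than in LSEC. Dhrs3, a retinal reductase gene that retinoic acid is known to induce, read 573, 981 and 1055 in hepatocytes, 2925, 2928 and 2564 in Kupffer cells, 2754, 5940.4 and 2417 in LSEC and 590.5 and 718 in 1-day HSC. Kupffer cells and LSEC were both high, and the difference of 0.28 between them did not pass (SE 0.284, limma adjusted p = 0.42). LSEC lay 1.92 above hepatocytes and 2.25 above 1-day HSC (limma adjusted p = 6.5e-05 and 1.1e-04).

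**Figure D2:**
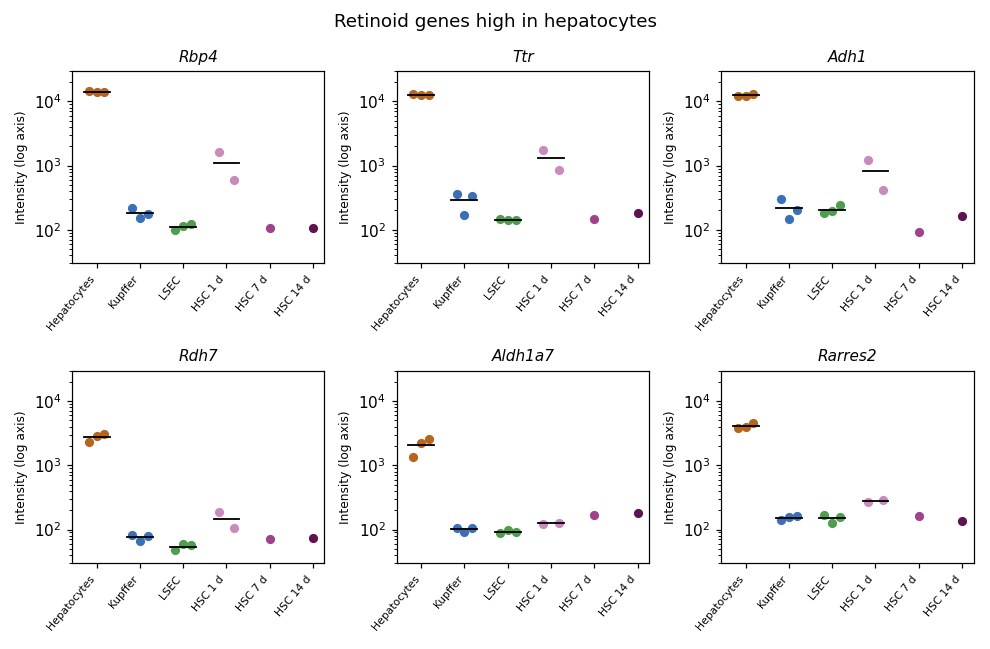
Intensity on a logarithmic axis for 6 retinoid genes on the 13 arrays, in 6 groups. Points are arrays and bars are means of groups with replicates. The hepatocyte arrays stand above all others in each panel, and 1-day HSC replicate 1 reads above replicate 2 for Rbp4, Ttr, Adh1 and Rdh7.

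Retinoic acid is made from retinal by the Aldh1a family. Aldh1a1, the main retinal dehydrogenase gene of adult liver, read 4574, 5066 and 5483 in hepatocytes, 155, 158 and 185 in Kupffer cells, 123, 92.7 and 93.1 in LSEC and 806 and 870.4 in 1-day HSC. Hepatocytes and 1-day HSC were both above Kupffer cells and LSEC with no overlap, and hepatocytes exceeded 1-day HSC by 2.47 (SE 0.106, limma adjusted p = 1.1e-09). Its neighbour Aldh1a7, a closely related gene, read 1369.9, 2219 and 2591 in hepatocytes and 87.6 to 128 elsewhere, a difference of 3.32. Near-identical genes can share probe signal, and the probe sequences were not analysed here. Aldh1a2, known from the embryo and the mesothelium, did not pass the filter, at 171 and 149.7 in 1-day HSC and 59.4 to 90.3 in the sorted cells. Aldh1a3 read 231 and 239 in 1-day HSC and 136 to 162 in the sorted cells, 0.42 above LSEC and under the minimum difference of 1. It passed the filter of this fit only through the 1-day HSC arrays, where it is high.

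The carotenoid cleavage enzymes differed by cell type. Bco1, which cleaves beta-carotene centrally to retinal, read 1596, 1436 and 1044 in hepatocytes, 136, 124 and 114 in Kupffer cells, 148, 141 and 98.8 in LSEC and 3699.9 and 3927 in 1-day HSC. The 1-day HSC arrays were above every sorted array and hepatocytes came second. The difference of 1-day HSC from hepatocytes was 1.45 (SE 0.153, limma adjusted p = 3.9e-06) and that from Kupffer cells was 4.23. It was the single retinoid gene called higher in 1-day HSC. Bco2, the mitochondrial enzyme of off-centre cleavage, was a Kupffer cell gene here. It read 88.7, 87.2 and 98.6 in hepatocytes, 432, 442 and 364 in Kupffer cells, 57.5, 54.9 and 47.6 in LSEC and 49.3 and 49.2 in 1-day HSC, with no overlap, and was 1.50 above hepatocytes (SE 0.0793, limma adjusted p = 3.4e-09).

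Lrat makes retinyl esters and is a classical gene of retinoid-storing stellate cells. It read 95.8, 87.1 and 95.5 in hepatocytes, 323, 195 and 183 in Kupffer cells, 107, 125 and 105 in LSEC and 257 and 353 in 1-day HSC. The Kupffer cell and 1-day HSC arrays overlapped, with Kupffer replicate 1 between the HSC arrays. On the 3 Kupffer arrays the summed stellate cell markers were 4172, 2887 and 3132, also highest on replicate 1. Most of that gap came from Dcn at 893, 278 and 444 and Hgf at 1286, 796 and 906. Of the other markers Des, Reln, Pdgfrb, Hand2, Ngfr and Rgs5 were also highest on replicate 1, and Lhx2, Cygb, Colec11 and Gfap were not. On average 5 of the 12 stellate cell markers were above the table's median on the Kupffer arrays. The part of stellate cells in the Lrat values was not tested. Lrat differed between 1-day HSC and Kupffer cells by 0.31 (SE 0.162, limma adjusted p = 0.11), while 1-day HSC exceeded hepatocytes by 1.13 (limma adjusted p = 5.5e-05).

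Retinoic acid breakdown by CYP26A1 was represented in hepatocytes. Cyp26a1 read 314, 377 and 528 there and 58.9 to 102 elsewhere, a difference of 1.47 from LSEC (SE 0.127, limma adjusted p = 5.1e-07). With the table's median as the added constant the difference was 0.99 and under the minimum, as it was for Rdh16 at 0.92 and Rdh5 at 0.96. Cyp26b1 read 219, 251 and 339.9 in hepatocytes, 327, 277 and 247 in Kupffer cells, 262, 797 and 254 in LSEC and 239.6 and 219 in 1-day HSC. Apart from LSEC replicate 2 the arrays lay between 219 and 339.9, and no pair of populations passed.

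Of the receptor genes 1 was called. Rxra, the main RXR gene of liver, read 1188, 1077 and 1366 in hepatocytes, 3421, 3661 and 3498 in Kupffer cells, 866, 1036 and 828 in LSEC and 949 and 1033 in 1-day HSC. Kupffer cells lay above the rest with no overlap, 1.49 above hepatocytes (SE 0.101, limma adjusted p = 4.0e-08). Rxrb ran from 560.5 to 989 over the 11 arrays, highest in Kupffer cells and lowest in 1-day HSC, and its widest difference between 2 populations was 0.63. Rxrg was highest in hepatocytes, at 236, 221 and 222, against 75.4 to 93.1 elsewhere. It did not pass the filter, and without the filter hepatocytes were 0.83 above Kupffer cells.

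The 3 RAR genes were ordered differently. Rara was highest in Kupffer cells, at 837, 847 and 807, and lowest in hepatocytes, at 362, 401 and 465, a difference of 0.90. Rarg was highest in LSEC, at 525, 666 and 521, against 429 and 405 in 1-day HSC. These neighbours in its order differed by 0.38 (SE 0.146, limma adjusted p = 0.049). Rarb, the receptor gene that is itself a classical target of retinoic acid, read 162, 191 and 217 in hepatocytes, 140.4, 140.0 and 151 in Kupffer cells, 286, 585 and 181 in LSEC and 671 and 619 in 1-day HSC. The 1-day HSC arrays were the highest, but LSEC replicate 2 came close to them. The difference of 1-day HSC from LSEC was 0.85 (SE 0.27, limma adjusted p = 0.021) and it was called higher without LSEC replicate 2.

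The promoters of Rarb and Cyp26a1 are shown because they carry the same type of element and these genes had different profiles on the arrays, and that of Bco1 because it was the gene called in 1-day HSC. Promoter windows of 300 bases, from 250 before to 50 after the gene start, come from RefSeq on GRCm38.p6. They were searched on both strands for direct repeats of a 6-base element spaced by 1, 2 or 5 bases, the arrangement that RAR and RXR receptors are known to bind. The common form of the element is AGGTCA. A second form that was accepted is AGTTCA. Each may also start with a guanine, which makes the former read GGGTCA in this search. The latter of the pair then becomes GGTTCA. Windows were found for 32 of the 37 genes, with 50 windows in all. A repeat spaced by 5 was in 2 of them, those of Rarb and Cyp26a1, and in 0.0974% of all 32851 windows. A repeat spaced by 1 was in 1 of them, that of Bco1, and in 0.222% of all windows. A repeat spaced by 2 was in 0 of the 50 and in 0.268% of all. A match is a run of letters and does not show binding. The windows follow 5′ to 3′ on the gene's strand, with the elements of a repeat in capitals.
Rarb, chr14:16575427-16575726, minus strand: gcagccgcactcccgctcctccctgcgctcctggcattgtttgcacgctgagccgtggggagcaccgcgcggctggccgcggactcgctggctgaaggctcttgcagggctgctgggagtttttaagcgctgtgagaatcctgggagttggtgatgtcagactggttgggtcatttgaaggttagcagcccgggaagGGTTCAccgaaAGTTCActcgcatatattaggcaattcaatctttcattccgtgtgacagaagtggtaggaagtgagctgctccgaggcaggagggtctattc
Cyp26a1, chr19:37697558-37697857, plus strand: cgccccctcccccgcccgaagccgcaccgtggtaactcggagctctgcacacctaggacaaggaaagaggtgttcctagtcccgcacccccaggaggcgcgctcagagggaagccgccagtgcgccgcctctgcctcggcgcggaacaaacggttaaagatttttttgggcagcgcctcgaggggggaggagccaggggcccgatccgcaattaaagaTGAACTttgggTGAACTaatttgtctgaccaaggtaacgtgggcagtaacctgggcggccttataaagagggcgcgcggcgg
Bco1, chr8:117095615-117095914, plus strand: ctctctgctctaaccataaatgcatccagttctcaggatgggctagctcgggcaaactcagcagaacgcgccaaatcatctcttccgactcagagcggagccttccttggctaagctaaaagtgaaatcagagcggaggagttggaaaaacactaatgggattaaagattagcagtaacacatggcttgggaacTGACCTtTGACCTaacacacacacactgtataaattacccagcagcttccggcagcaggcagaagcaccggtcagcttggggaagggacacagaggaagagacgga
In Rarb the repeat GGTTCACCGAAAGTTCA begins 53 bases before the gene start. In Cyp26a1 the repeat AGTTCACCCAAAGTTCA lies on the opposite strand, and on the gene's strand it begins 32 bases before the gene start. In Bco1 the repeat AGGTCAAAGGTCA lies on the opposite strand, and on the gene's strand it begins 56 bases before the start. On the 11 arrays Rarb and Bco1 were highest in 1-day HSC, and Cyp26a1 was highest in hepatocytes and lowest in 1-day HSC.

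**Figure D3:**
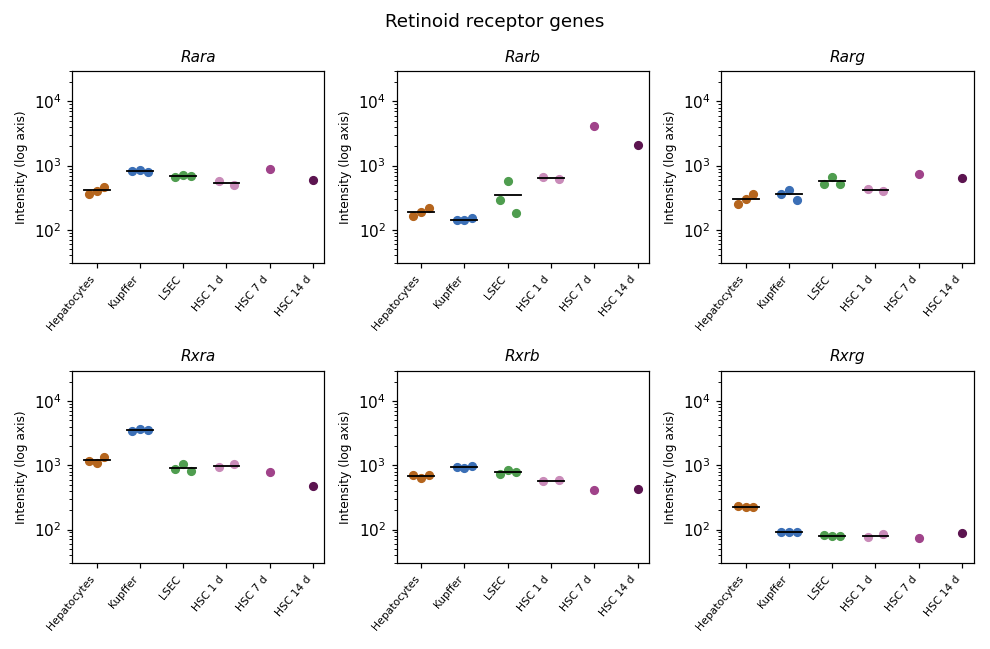
Intensity on a logarithmic axis for the 6 retinoid receptor genes on the 13 arrays. Points are arrays and bars are means of groups with replicates. Rxra stands highest in Kupffer cells, and Rarb rises from 671 and 619 in 1-day HSC to 4179 at 7 days and 2057 at 14 days.

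The genes named as retinoic acid receptor responders were called in hepatocytes. Rarres2, which encodes the secreted factor chemerin, read 3863, 3964 and 4544 in hepatocytes, 140.1, 154 and 160.2 in Kupffer cells, 167, 128 and 158 in LSEC and 271 and 284 in 1-day HSC. Hepatocytes exceeded 1-day HSC by 3.54 (SE 0.0997, limma adjusted p = 3.9e-11). Rarres1 read 807, 1621 and 1800.3 in hepatocytes and 60.8 to 96.6 elsewhere, 3.12 above Kupffer cells (limma adjusted p = 1.7e-07). The intracellular retinoic acid binding protein genes Crabp1 and Crabp2 overlapped between the populations. Crabp1 ranged over 194 to 265 and Crabp2 over 126 to 166 on the 11 arrays, and Crabp2 did not pass the filter.

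LSEC replicate 2 stood apart in a small group of retinoid genes, which were singled out after their values were seen. On LSEC replicates 1, 2 and 3, Cyp26b1 read 262, 797 and 254, Dhrs3 read 2754, 5940.4 and 2417 and Rarb read 286, 585 and 181. In each gene replicate 2 was above both other LSEC arrays, by 1.37, 1.18 and 1.10 on the log2 scale from their mean. Ranked by that gap among the 12081 genes tested, Cyp26b1 was number 2, Dhrs3 number 3 and Rarb number 6. The growth factor gene Hgf was number 1 at 1.51 and the cyclin gene Ccnd1 number 4 at 1.16. The summed stellate cell markers were 3077, 3290 and 2020 on the 3 arrays and the summed LSEC markers 73254, 68953 and 53019. Hgf is one of those stellate cell markers and read 474, 893 and 127, and the peak of their sum on replicate 2 rested on it. Of the other stellate cell markers Des and Rgs5 were slightly highest on replicate 2. The rest were not, such as Dcn at 823, 760 and 181. The part of other cells in these values was not tested, and 1 array carries no test.

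HSC in longer culture were compared with 1-day HSC by merging the 7-day and 14-day arrays, with the spread taken from all 5 groups of the fit. Its p-values therefore rest partly on the sorted cells. Of the 37 retinoid genes 6 rose, where 5.52% of the 12368 genes tested rose, and 3 fell, where 4.27% fell. The median difference of the 33 genes that passed the filter was 0.00, against -0.04 over all genes. Markers of other mesenchymal cells moved in the same comparison. Of the myofibroblast markers 6 of 10 rose, of the portal fibroblast markers 3 of 6 rose and 1 fell, and of the smooth muscle and the mesothelial markers 2 of 5 each rose. Of the LSEC markers 8 of 10 fell and of the stellate cell markers 3 of 12. The summed myofibroblast markers were 39477 to 45127 at day 1, 78954 at day 7 and 90726 at day 14. The summed portal fibroblast markers were 3556 to 4120 at day 1, 14561 at day 7 and 19520 at day 14. The summed mesothelial markers were 845 to 898, 1382 and 2860. Their part in the changes below was not tested.

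Of the genes of retinoic acid synthesis Aldh1a1 and Aldh1a2 rose. Aldh1a1 read 806 and 870.4 on the 1-day arrays, 6779 at 7 days and 4579 at 14 days. Both long cultures lay far above day 1, the 7-day array exceeded the highest hepatocyte array, and the difference was 2.62 (SE 0.159, limma adjusted p = 9.8e-08). Aldh1a2 read 171 and 149.7 on the 1-day arrays, 875 at 7 days and 485 at 14 days, a difference of 1.60 (SE 0.178, limma adjusted p = 1.8e-05). It passed the filter only through the 2 long cultures, the arrays where it is high, and without either of them it was not tested. With no filter it was called as well (limma adjusted p = 8.9e-05). Aldh1a3 and Aldh1a7 did not pass, at 0.00 and 0.30. Aldh1a7 read 123 and 128 on the 1-day arrays, 167 at 7 days and 179.7 at 14 days, below each of its hepatocyte values.

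Rarb and Dhrs3, both known retinoic acid targets, rose too, as did Cyp26b1, of retinoic acid breakdown, and Crabp1, a cytosolic retinoic acid carrier. Rarb, whose promoter is printed with its values in the populations, read 671 and 619 on the 1-day arrays, 4179 at 7 days and 2057 at 14 days. The difference was 2.05 (SE 0.351, limma adjusted p = 4.6e-04), and the 7-day array was the brightest of all 13 for this gene. Dhrs3 read 590.5 and 718 on the 1-day arrays, 3909 at 7 days and 4459 at 14 days, a difference of 2.54 (SE 0.342, limma adjusted p = 7.8e-05), with 14 days slightly above 7 days. Cyp26b1 read 239.6 and 219 on the 1-day arrays, 1816 at 7 days and 473 at 14 days, a difference of 1.72 (SE 0.496, limma adjusted p = 0.013). Crabp1 read 253 and 247 on the 1-day arrays, 2040.5 at 7 days and 332 at 14 days, a difference of 1.50 (SE 0.485, limma adjusted p = 0.024). For Crabp1 and Cyp26b1 the call rested on the 7-day array. Without it the differences were 0.32 and 0.83 and did not pass, with the lone 14-day array assumed to vary like the other groups. With the 4 HSC arrays alone neither passed (limma adjusted p = 0.17 and 0.065), nor did Crabp1 without 1-day replicate 1 or 2 (limma adjusted p = 0.080 and 0.091) or without the filter (0.055), nor Cyp26b1 without 1-day replicate 2 (0.065). Cyp26a1, the other CYP26 gene, read 58.9 to 67.8 on the 4 HSC arrays.

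**Figure D4:**
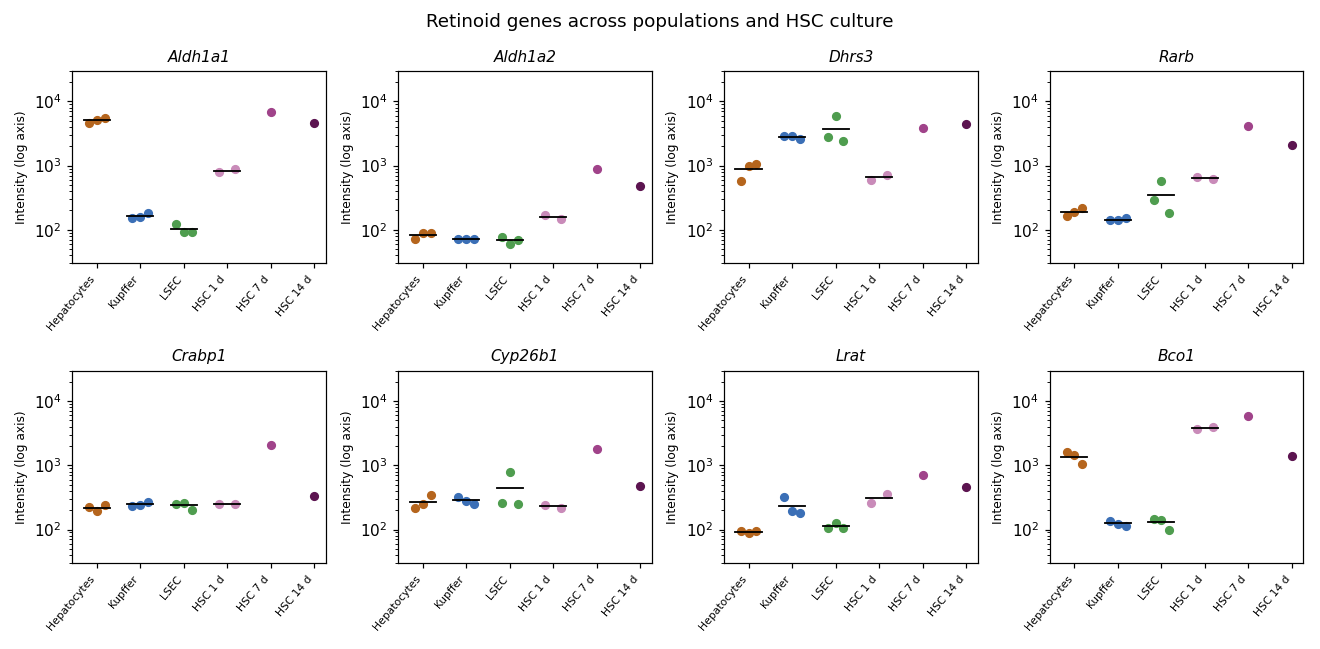
Intensity on a logarithmic axis for 8 retinoid genes on the 13 arrays. Points are arrays and bars are means of groups with replicates. Crabp1, Cyp26b1, Rarb and Bco1 are highest at 7 days and lower at 14 days, Dhrs3 stays high at 14 days, and 1 LSEC array, replicate 2, stands above the others for Dhrs3, Rarb and Cyp26b1.

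The 7-day and 14-day arrays are 1 array each and were not tested against each other. Bco1 read 3699.9 and 3927 on the 1-day arrays, 5950.0 at 7 days and 1414 at 14 days, so that it was above day 1 at 7 days and below it at 14 days. The merged difference was -0.37 and did not pass (limma adjusted p = 0.53). The 14-day array alone differed from day 1 by -1.38 and the 7-day array alone by 0.63, values of 1 array given without a test. Lrat read 257 and 353 on the 1-day arrays, 705 at 7 days and 457 at 14 days. Both long cultures were above both 1-day arrays, the difference was 0.76 (SE 0.205, limma adjusted p = 0.0092), and it stayed under the minimum difference of 1. The 7-day array alone differed from day 1 by 1.03 and the 14-day array alone by 0.49. The difference of 14 from 7 days was -2.36 for Crabp1, -2.01 for Bco1, -1.77 for Cyp26b1 and -0.99 for Rarb, and Crabp1 and Bco1 were numbers 7 and 11 from the bottom among 12368 genes.

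The 3 genes that fell were Rbp4, Ttr and Adh1. Rbp4 read 1636 and 589 on the 1-day arrays, 105 at 7 days and 108 at 14 days, a difference of -2.50 (SE 0.294, limma adjusted p = 2.7e-05). Ttr read 1779 and 865 on the 1-day arrays, 147 at 7 days and 179.9 at 14 days, a difference of -2.43 (SE 0.274, limma adjusted p = 2.0e-05). Adh1 read 1220.0 and 415 on the 1-day arrays, 94.0 at 7 days and 166 at 14 days, a difference of -1.94 (SE 0.342, limma adjusted p = 5.9e-04). Each was higher on 1-day replicate 1 than on replicate 2, and the long cultures were below both.

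Several hepatocyte markers were also highest on 1-day replicate 1 among the HSC arrays. The median of the 10 markers was 6.87% of the hepatocyte mean on 1-day replicate 1, 3.57% on replicate 2, 1.11% at 7 days and 1.09% at 14 days. Rbp4 stood at 11.5%, 4.16%, 0.742% and 0.762% of its hepatocyte mean on these arrays. Ttr stood at 14.1%, 6.84%, 1.17% and 1.42%, and Adh1 at 9.78%, 3.32%, 0.754% and 1.33%. Among single markers, Alb was at 47.7% and 33.8% on the 1-day arrays and Tat at 1.09% and 1.21%. Of the 10 markers 6 fell in culture. The part of hepatocyte RNA in the changes of Rbp4, Ttr and Adh1 was not tested. Aldh1a1, which rose, stood at 16% and 17.3% of the hepatocyte mean on the 1-day arrays and 134% and 90.8% on the long cultures.

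**Figure D5:**
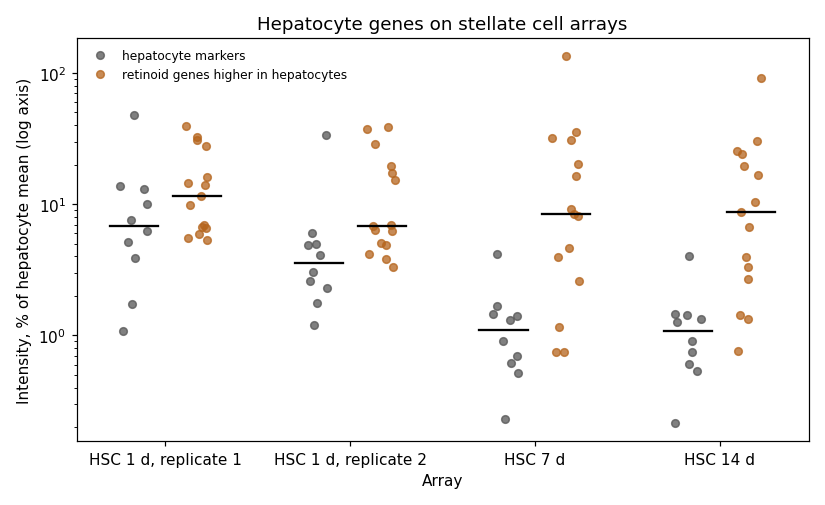
Intensity as a percentage of the same gene's hepatocyte mean, on a logarithmic axis, for the 10 hepatocyte markers and the 15 retinoid genes called higher in hepatocytes on the 4 HSC arrays. Points are genes and bars are medians. The marker median falls from 6.87% on 1-day replicate 1 to 1.09% at 14 days, while 1 retinoid gene, Aldh1a1, stands at 134% at 7 days.

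The remaining retinoid genes did not pass in culture. Rdh10 had a difference of -0.83 (SE 0.105, limma adjusted p = 5.0e-05), from 1249.7 and 1127 at day 1 to 686 and 582, under the minimum difference of 1. Rarres2 at -0.63, Rxra at -0.62, Rdh7 at -0.54 and Rxrb at -0.39 had an adjusted p below 0.05 in the same way, as did Dhrs4 at 0.68, Rarg at 0.63 and Rara at 0.40. Rxra read 949 and 1033 on the 1-day arrays, 788 at 7 days and 475 at 14 days, lowest at 14 days. The differences of Adh5, Rdh9, Stra6 and Bco2 lay between -0.02 and 0.05. In all, 14 of the 37 genes were called in neither comparison.

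Other genes around the pathway were taken from lists of textbook members, and differences in a population are again from the nearest one. Their counts are to be set against the same shares of all genes, higher and lower: 6.80% and 2.72% in hepatocytes, 6.53% and 2.28% in Kupffer cells, 2.35% and 0.406% in LSEC, 2.59% and 0.281% in 1-day HSC, and 5.52% and 4.27% in culture. Of 12 genes of retinyl ester and triglyceride synthesis and hydrolysis, 11 of which passed the filter, 4 were higher in hepatocytes, led by the carboxylesterase genes Ces1d at 4.18, Ces1f at 4.08 and Ces1g at 3.68. In Kupffer cells 2 of them were higher, the lipoprotein lipase gene Lpl at 2.44 and the lysosomal lipase gene Lipa at 2.12, and Mgll was lower at -1.19. In culture limma called 0 of the 12. Without the minimum difference Dgat1 at 0.66, Lpl at 0.70, Lipa at 0.70, Ces1d at -0.48 and Dgat2 at -0.72 had an adjusted p below 0.05. Of 8 lipid droplet genes, 7 of which passed, Cideb at 3.17 and Cidec at 2.06 were higher in hepatocytes. In culture limma called 0 of the 8, with an adjusted p below 0.05 for Plin3 at 0.94 and Cideb at -0.78. Plin2, a coat protein of stored lipid, read 2130.1 and 1998 on the 1-day arrays, 3048 at 7 days and 1796 at 14 days.

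Of 10 uptake and carrier genes outside the set, 5 passed the filter. Stra6l, a relative of Stra6, was higher in hepatocytes at 2.18, and the scavenger receptor gene Cd36 was lower there at -1.35. Lrp1, a receptor for lipoprotein remnants, was higher in Kupffer cells at 1.39, lower in LSEC at -2.18, and rose in culture by 1.13. The fatty acid binding protein gene Fabp5, which can carry retinoic acid, rose in culture by 1.82. Of 15 other oxidoreductase genes, 7 of which passed, Aldh8a1 was higher in hepatocytes at 2.25, Akr1b8 in LSEC at 2.02 and Cyp1b1 in 1-day HSC at 1.19. Cyp1b1 also rose in culture by 2.62, reading 391 and 500.1 on the 1-day arrays, 3780.5 at 7 days and 2632 at 14 days.

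Of 13 receptors that pair with RXR or act beside it, 11 of which passed, Ppara at 2.43 and Nr1i2 at 1.67 were higher in hepatocytes and Thra was lower there at -1.03. Nr1h3, which encodes the oxysterol receptor LXR alpha, was higher in Kupffer cells at 3.21, with Nr4a1 at 2.58 and Thrb at 1.65. Kupffer cells were also the population in which Rxra was called. Nr4a2 was higher in 1-day HSC at 1.01. In culture Nr4a1 rose by 1.98, and Nr4a2 at -1.96 and the bile acid receptor gene Nr1h4 at -1.52 fell. Of 8 coregulators, 6 of which passed, Ncoa3 was higher in Kupffer cells at 1.08 and Ep300 fell in culture at -1.01.

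Of 13 textbook retinoic acid targets outside the set, 8 of which passed, 3 were higher in LSEC, where 2.35% of all genes were, namely Meis2 at 1.99, Nr2f2 at 1.60 and Hoxa5 at 1.07. Nr2f2 read 2036, 2854 and 1198 and Hoxa5 367, 527 and 245 on LSEC replicates 1 to 3, with replicate 2 the highest for both. In culture 1 of the 13 was called, Hoxa5, which read 135 and 127 on the 1-day arrays, 425 at 7 days and 423 at 14 days and rose by 1.24 (SE 0.205, limma adjusted p = 3.6e-04). Among the genes of these lists, Ces1d, Ces1f, Ces1g, Aldh8a1, Ppara and Nr1i2 passed the filter of the population fit only through hepatocyte arrays. Stra6l and Cidec would not have passed that filter without the hepatocyte arrays. Hoxa5 passed the filter only through LSEC arrays and Cyp1b1 only through 1-day HSC arrays.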

How the data were processed

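RNA from 13 samples was labelled with biotin and hybridised to Affymetrix mouse gene arrays. The authors deposited a linear intensity for each of 25194 probe sets on each array, ranging from 10.6 to 28854 with medians of 216.5 to 232.9 by array. Affymetrix Expression Console and MAS5 (5.0) are listed, per the submitters' processing notes, without saying for which step. How background was corrected and arrays were scaled is not given in the sources used here, nor is a build. No further normalization was applied. Platform annotation gave 21181 probe sets with a single symbol, 1379 with several and 2634 with none, and 21097 matched a RefSeq gene. The brightest probe set stood for a gene. Genes that exceeded 224.5, the median of the table, on 2 or more arrays of a fit were tested as log2(intensity + 83) in R 4.3.3 with limma 3.58.1, two-sided, with Benjamini-Hochberg adjustment over all genes of each contrast. The population fit had 12081 genes on 11 arrays and 7 residual degrees of freedom, and the culture fit 12368 genes on 13 arrays and 8. The 7-day and 14-day arrays are not called replicates by their labels. p-values set a difference against the spread between arrays within the groups of a fit, and the number of arrays limits the precision. In the culture fit that spread includes the difference between the 7-day and the 14-day array. The fits were tested on simulated data. Members and lists were chosen with earlier results of these data known. Members called in either comparison, and Lrat, were described by array, with up to 3 called genes of each other list. Protein identity between family members had been planned and was not analysed here.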

Additional observations from a re-analysis of the deposited data

How the results depend on the processing

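Alternatives were another added constant (16 or the median of the table), quantile normalization, no filter, all probe sets of a gene averaged, all 13 arrays in the population fit, HSC arrays alone in the culture fit, and leaving out arrays. Of 641 recomputed differences of single retinoid genes 616 kept their direction and side of the threshold. With 16 as the constant, 1 retinoid gene was lower in Kupffer cells (Rdh11), 2 were higher in 1-day HSC (Rarb added) and 16 were higher in hepatocytes (Rdh9 added). With the table's median 11 were higher in hepatocytes. Leaving out arrays gave 14 to 15 genes higher in hepatocytes, 0 to 1 lower in Kupffer cells, 1 to 2 higher in 1-day HSC and 3 to 6 higher in long culture, the lowest without the 7-day array. Small culture differences changed sign: Aldh1a3 was 0.00 after quantile normalization. Leaving out arrays gave -0.05 to 0.05 for Aldh1a3, -0.24 to 0.02 for Rdh16, 0.00 to 0.10 for Adh5, -0.05 to 0.10 for Rdh9, -0.07 to 0.05 for Bco2 and -1.38 to 0.63 for Bco1. Aldh1a2 gave no value without the 7-day or the 14-day array, since it then failed the filter. The cause was not tested beyond the arrays left out.

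Counts over all genes that moved by more than 1.5 times were those lower in a population with the table's median as the constant (212 against 328 in hepatocytes, 182 against 276 in Kupffer cells, 31 against 49 in LSEC, 20 against 34 in 1-day HSC), lower in long culture with it (324 against 528), and higher in 1-day HSC with 1 HSC array left out (168 and 205 against 313).

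Correlations between the deviations of arrays from different populations were -0.11 to 0.11 for the same replicate number and -0.12 to 0.13 for other numbers. The deviations of the 1-day HSC replicates mirrored each other, so their correlations with any other array differed in sign alone. Such values showed no pairing by number, but they cannot decide whether arrays with the same number came from the same mice. No paired analysis was possible for culture because the long cultures carry no replicate number. With the replicate block, 15 retinoid genes were higher in hepatocytes, 2 in Kupffer cells, 0 in LSEC and 1 in 1-day HSC. The probe-set signal over background was not given, and differences near the low end are understated.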
